A study of Mus musculus with 59 samples.

Results

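The cytosolic ribosome was followed through 83 genes named for its proteins, in the prefrontal cortex of young mice. Of these, 33 are named for the small (40S) subunit and 50 for the large (60S) subunit. They were taken by gene symbol, as Rps or Rpl with a number and an optional suffix, together with Rpsa, Rplp0, Rplp1, Rplp2 and Fau. Symbols that mark a pseudogene and the Rps6k kinase genes were left out. Rps4l, whose symbol has no such mark, was kept, although GENCODE M21 annotates it as a transcribed processed pseudogene. Of 18088 genes in the table, 84 matched, 1 of which was a kinase gene (Rps6kl1). The other 83 all had a value of 10 or more in at least 4 libraries and so were all among the 17891 genes tested. Ribosomal entries that the symbol rule misses include Rps3a1, Rack1, Rps27rt and Rpl37rt, which are described separately.

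The ribosome joins amino acids into protein. The small subunit holds the messenger RNA and reads its codons against transfer RNAs, and the large subunit forms the peptide bond and holds the exit tunnel through which the new chain leaves. Messages for ribosomal proteins are among the most abundant of a cell, are short, and commonly begin with a C followed by a run of pyrimidines, the terminal oligopyrimidine (TOP) motif, through which the mTOR pathway controls their translation. Naa15, the gene altered in these mice, encodes the auxiliary subunit of the N-terminal acetyltransferase NatA, which sits at the ribosome's tunnel exit and acetylates new chains as they emerge.

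The 59 libraries came from C57BL/6J mice, either wild type (WT, 30 libraries) or heterozygous for Naa15 (HT, 29 libraries), whose dams received vehicle, fluoxetine (a serotonin reuptake inhibitor) or lithium. The pups were exposed through the milk from postnatal day 3 to day 24, and the prefrontal cortex was taken at day 25. Each combination of genotype, treatment and sex had 5 libraries, except HT vehicle males with 4. The labels give neither the kind of Naa15 allele nor litters or dams, so p-values measure the spread between these animals only, and animals of 1 litter cannot be told from independent ones. RNA was read from whole tissue with a stranded messenger RNA kit, and in such bulk samples fewer cells of a type and less RNA per cell cannot be told apart.

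Between 24992127 and 32870490 reads stood behind each library, and values are read estimates divided by the library's size factor, here called normalised counts. Naa15 itself had a mean of 1673 normalised counts, and HT differed from WT by -0.03 on the log2 scale in vehicle animals (limma adjusted p = 0.895) and by 0.02 over all treatments (adjusted p = 0.648). The level of its RNA therefore gave no check of the genotype labels. Libraries from lithium animals (20) and from HT females given fluoxetine (5) stood apart from the other 34 in their dependence on transcript length. The slope of a library's log2 deviation per doubling of length lay between -0.157 and -0.0252 in these 25 and between -0.00327 and 0.0869 in the others, without overlap. Mitochondrially encoded genes took 6.76 to 10.3% of the normalised counts in the 25 and 4.96 to 7.83% in the others. Ribosomal protein transcripts are short, with a median length of 704 bases against 2264 bases over 15136 coding genes tested, so gene values and counts for these libraries were also computed with a trend on GC content and length removed from every library. The summed levels and correlations below are from the values as deposited only.

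The 83 genes held 0.821% of a library's normalised counts on average, with a median of 2303.9 normalised counts per gene against 420.5 over all genes tested. Levels per length used the median length of a gene's coding transcripts. By this measure the highest levels belonged to Rplp1 (12608 normalised counts per kilobase) and Rpl3 (11829). Rplp1 is an acidic protein of the stalk that recruits elongation factors, and Rpl3 lies near the peptidyl transferase centre. In the small subunit Rps24 (8669) and Rps15 (8418) led. This order depends on the length used. The transcripts chosen for the trend have 1351 bases for Rpl3 and 1613 for Rps24, against medians of 816 and 525. The lowest level was that of Rpl3l (6.69), a copy of Rpl3 known mainly from heart and skeletal muscle. Rps27 (213) and Rpl12 (225) were the next lowest, and both have near-identical copies elsewhere in the genome with which reads can be divided. Whether such sharing lowers their levels was not tested.

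Within groups the genes varied together. The deviation of a gene from its group mean followed the mean deviation of the other 82 with a median Pearson r of 0.70 over the 59 libraries, above 0.3 for 77 genes and below 0 for none. These points share a library's size factor, so the correlation is a description only. The standard deviation within groups had a median of 0.10 on the log2 scale and ran from 0.04 to 0.70, the highest being those of the low-count genes Rpl3l (0.70) and Rps27 (0.69), against a median of 0.09 in 5783 other genes with a mean of 1000 or more.

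Most of these genes are known for a pyrimidine run at the transcription start, and the annotated starts were read to see how far that sequence goes with the results below. The RefSeq table for GRCm38.p6 held 74 promoters of 62 of the genes. A stretch of at least 5 bases of C or T, counted from a C that lies within 5 bases of the annotated start and whatever base precedes it, was present at 32 of these promoters (43.2%). It was present at 18.3% of all 32851 promoters in the table and at 19.6% of the 16219 promoters of the other genes in the expression table. The starts of 8 genes are shown because the values of these genes are described below for lithium or for HT males, each from 20 bases before the start to 10 bases from it, 5′ to 3′ on the gene's own strand, with the counted stretch in capitals (pyrimidines can continue before it, as in Rpl14).
Rps18: acttatacgtcacttccgCTCTCTCTTCCa
Rpl13a: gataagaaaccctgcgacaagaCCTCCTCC
Rps24: acgcccccgcgctggggtCCTTCCTTgcgc
Rps12: ttaaataccgtcatgcggccaccgccggcc
Rpl28: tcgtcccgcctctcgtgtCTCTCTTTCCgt
Rpl14: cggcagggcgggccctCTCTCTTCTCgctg
Rpl22l1: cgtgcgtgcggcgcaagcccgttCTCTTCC
Rps27: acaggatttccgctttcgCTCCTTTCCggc

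The windows lie at chr17:33955656-33955685 (minus strand) for Rps18, chr7:45128736-45128765 (minus) for Rpl13a, chr14:24490658-24490687 (plus) for Rps24 and chr10:23787200-23787229 (minus) for Rps12. Those of Rpl28, Rpl14 and Rpl22l1 are on the plus strand at chr7:4792945-4792974, chr9:120571497-120571526 and chr3:28805488-28805517, and that of Rps27 is on the minus strand at chr3:90213639-90213668. Rps12 has no such run in this window. Among the other motifs searched on both strands of the 300 bases around each start, CCGGAAG (the core of an ETS factor site) was in 33.8% of the genes' promoters, 14.4% of those of other genes in the expression table and 8.86% of all promoters. AAGATGG (a YY1-type site) was in 17.6%, 6.40% and 6.34%. TATAAA was in 9.46%, 7.89% and 13.6%, so its direction depended on the promoters compared. These are letter matches, and no binding was measured.

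The summed level of the 83 genes was highest under lithium. It made up 0.763% ± 0.0674 (SD, n = 19) of the normalised counts in vehicle libraries, from 0.661 to 0.952%, and 0.892% ± 0.0531 (SD, n = 20) in lithium libraries, from 0.824 to 0.995%. WT males went from 0.697% ± 0.0261 with vehicle to 0.926% ± 0.0669 with lithium (SD, n = 5 each) without overlap, and WT females from 0.801% ± 0.0347 to 0.867% ± 0.0270 with overlap. HT females stood at 0.754% ± 0.0169 with vehicle, 0.853% ± 0.0559 with fluoxetine and 0.857% ± 0.0394 with lithium, and neither drug group overlapped vehicle.

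The summed level was compared in 14 contrasts with two-sided exact permutation tests, whose smallest possible p is 0.00794 for 5 against 5 libraries and 0.0159 for contrasts with the 4 HT vehicle males. Of these, 5 had no overlap and an adjusted p of 0.0222 by the exact permutation test: lithium against vehicle in WT males and in HT females, fluoxetine against vehicle in HT females, and HT against WT in fluoxetine females and in fluoxetine males. The other 9 had adjusted p from 0.0556 to 0.825 in the same exact tests. With mitochondrial genes taken out of the total, 1 HT fluoxetine male fell within the WT fluoxetine male range (exact permutation p = 0.0159 before adjustment).

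**Figure D1:**
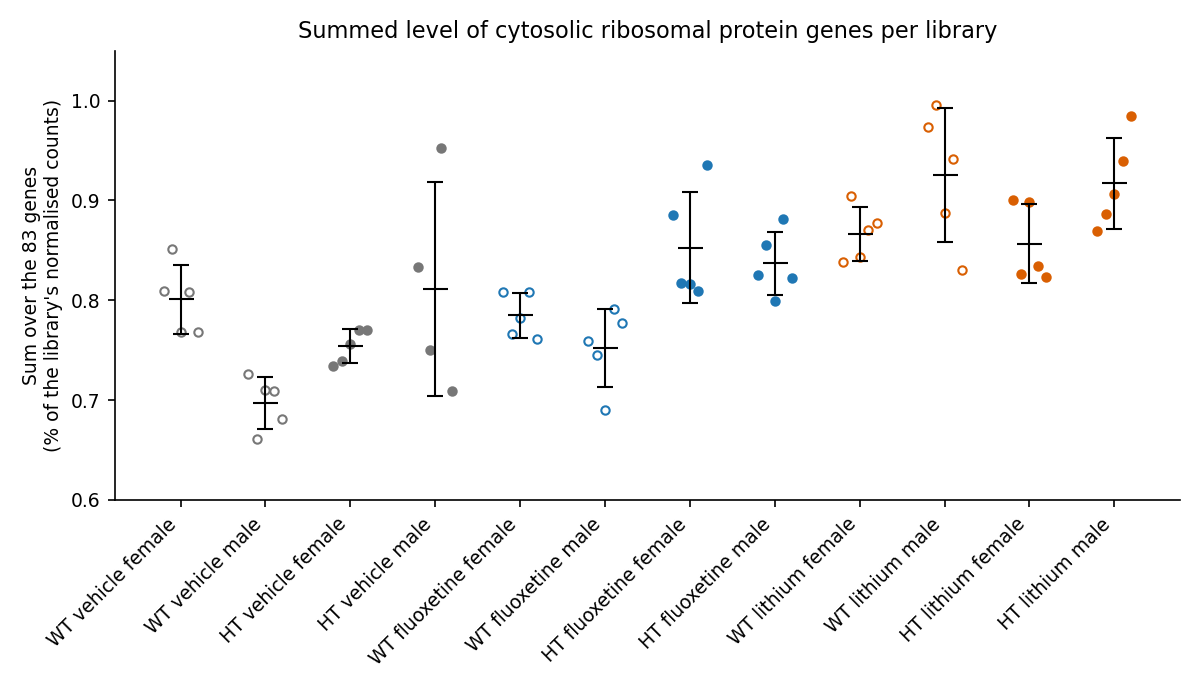
Summed level of the 83 ribosomal protein genes, as a percent of each library's normalised counts, in the 12 groups of genotype, treatment and sex. Points are libraries and bars are the mean ± SD; lithium libraries lie between 0.824 and 0.995%, and WT vehicle males between 0.661 and 0.726% are the lowest group.

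Under lithium, 61 of the 83 genes rose and 8 fell against vehicle, over both genotypes and sexes (20 against 19 libraries). Over all 17891 genes tested, 32.7% rose and 30.4% fell by the same rule, limma with Benjamini-Hochberg adjusted p under 0.05. The median difference was 0.29 on the log2 scale for the ribosomal protein genes and 0.02 for all genes tested. Both subunits took part, with 25 of 33 small-subunit genes higher and 3 lower, and 36 of 50 large-subunit genes higher and 5 lower. The counts were 44 higher and 7 lower in WT females (18.8% and 19% of all genes), 70 and 2 in WT males (21.3% and 22.2%), 52 and 5 in HT females (18.4% and 19.3%), and 47 and 7 in HT males (18.6% and 20.2%). With the trend on GC content and length removed WT females had 19 and 16 (9.66% and 8.29% of all genes) and WT males 44 and 4 (12.1% each). HT females then had fewer genes higher than lower, 16 and 20 (5.53% and 10.3%), and HT males had 24 and 11 (6.85% and 8.38%).

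Among the expressed copies, Rpl22l1 moved most. Its protein can take the place of Rpl22, a large-subunit protein that also binds RNA outside the ribosome. Rpl22l1 had 400.58 to 509.48 normalised counts in vehicle libraries (median 429.62) and 639.32 to 902.8 in lithium libraries (median 704.53). Every lithium library was above every vehicle library, and the gene rose by 0.71 ± 0.03 (SE, log2; limma adjusted p = 9.97e-25). Rpl22 rose as well, from 1719.1 to 1948.4 in vehicle libraries to 2116.1 to 2401.8 with lithium, again without overlap (0.31 ± 0.01 SE). With the trend on GC content and length removed, Rpl22l1 stood at 0.18 (adjusted p = 1.06e-07) and Rpl22 at -0.09, the opposite direction. That trend used the length of a single chosen transcript per gene. For Rpl22 this was 474 bases, against a median of 2048 bases over its coding transcripts. The effect of this choice was not tested.

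Rps27l, a copy of Rps27 known as a target of p53, had 97.914 to 139.95 normalised counts with vehicle and 156.25 to 189.51 with lithium, without overlap (0.51 ± 0.04 SE), and with the trend removed it differed by 0.06 and was not called (adjusted p = 0.148). Rps27 rose by 1.52 ± 0.21 (SE; limma adjusted p = 1.54e-08), but its 12.1 to 278.67 counts with vehicle and 85.5 to 377 with lithium overlapped. Of its 31-base stretches 27.4% occur in another tested gene. The copy Rps27rt had a mean of 1233 normalised counts and rose by 0.70, and the sum of both rose by 0.74 (adjusted p = 2.32e-24). The copies Rpl36al (0.24), Rpl7l1 (0.16) and their parents Rpl36a (0.42) and Rpl7 (0.23) also rose, and Rps4x rose by 0.20. With the trend removed Rpl36al (-0.05), Rpl7 (-0.04) and Rps4x (-0.02) were below 0, Rpl36a stood at 0.01 and Rpl7l1 at 0.13. Rpl3l (0.13) and its parent Rpl3 (0.03) did not pass the test.

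The RNAs of the stalk protein genes did not move alike. Rplp1 had 4063 to 7522.7 normalised counts with vehicle (median 4991.4) and 6760.2 to 9567.8 with lithium (median 7527.2), and it rose by 0.56 ± 0.05 (SE). The ranges overlapped, with the lithium median level with the highest vehicle library. Its partner Rplp2 differed by 0.10 ± 0.07 (SE, adjusted p = 0.177), and Rplp0, the stalk base, by 0.08 ± 0.03 (adjusted p = 0.0280), a call that was lost without HT vehicle male 4 (adjusted p = 0.0835) and without 5 other libraries taken singly. With the trend removed Rplp1 stood at 0.46, and Rplp0 at 0.04 was not called (adjusted p = 0.245). Whether the difference itself differs between these 3 genes was not tested.

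Among the other genes that rose, Rpl41, one of the smallest known proteins, had 3377.7 to 5817 normalised counts with vehicle and 4949.6 to 7427.2 with lithium (0.49 ± 0.05 SE). Rpl39, which lines the exit tunnel, rose by 0.55 ± 0.04, and Rps29, a zinc-binding protein of the small subunit's head, by 0.51 ± 0.06. Rpl24, which makes a bridge to the small subunit, rose by 0.58 ± 0.04, and by 0.29 once summed with the copy that shares its sequence. Fau, which encodes the small-subunit protein eS30 behind a ubiquitin-like leader, had 1680.7 to 2396.2 counts with vehicle and 2467.9 to 3030.9 with lithium, without overlap (0.40 ± 0.03). Rpsa, a small-subunit protein also described as a laminin receptor, rose by 0.19 ± 0.03. After removal of the trend Rpl41 stood at 0.37, Fau at 0.32, Rps29 at 0.24, Rpl24 at 0.35 and Rpsa at 0.15, all still called.

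Of the 8 genes that fell under lithium, Rpl28 and Rpl14 of the large subunit were called in all 4 combinations of genotype and sex. Rpl28 had 2079.3 to 2654.2 normalised counts with vehicle (median 2180.3) and 1377.9 to 1860.2 with lithium (median 1656.6). No lithium library reached the vehicle range, and the gene fell by 0.43 ± 0.03 (SE; limma adjusted p = 3.34e-17). Rpl14 had 2367.6 to 2988.1 with vehicle and 1871.2 to 2554.7 with lithium, with a small overlap, and fell by 0.33 ± 0.03. Rpl8, at the core of the peptidyl transferase region, fell by 0.23 ± 0.03. After removal of the trend Rpl28 stood at -0.52, Rpl14 at -0.45 and Rpl8 at -0.21.

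The other 5 that fell were Rps4l (-0.35), Rps16 (-0.25), Rpl37 (-0.24), Rpl18 (-0.15) and Rps15 (-0.10). The call on Rps15 was lost without HT vehicle male 3 (limma adjusted p = 0.107) and without 19 other libraries taken singly. Rps16 and Rpl18 were named after their values were seen, as were Rpl37 and Rpl39. Some directions belong to a gene and its copies taken apart. Summed with their copies, Rpl37 differed by -0.05 (adjusted p = 0.458), and Rpl10, a late-joining large-subunit protein, went from 0.42 to 0.04 (adjusted p = 0.181). Rps23 of the decoding centre went from -0.02 to 0.16 and then passed the test. In all, 32 of the 83 genes have such a partner gene in the table that shares at least 100 stretches of 31 bases.

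**Figure D2:**
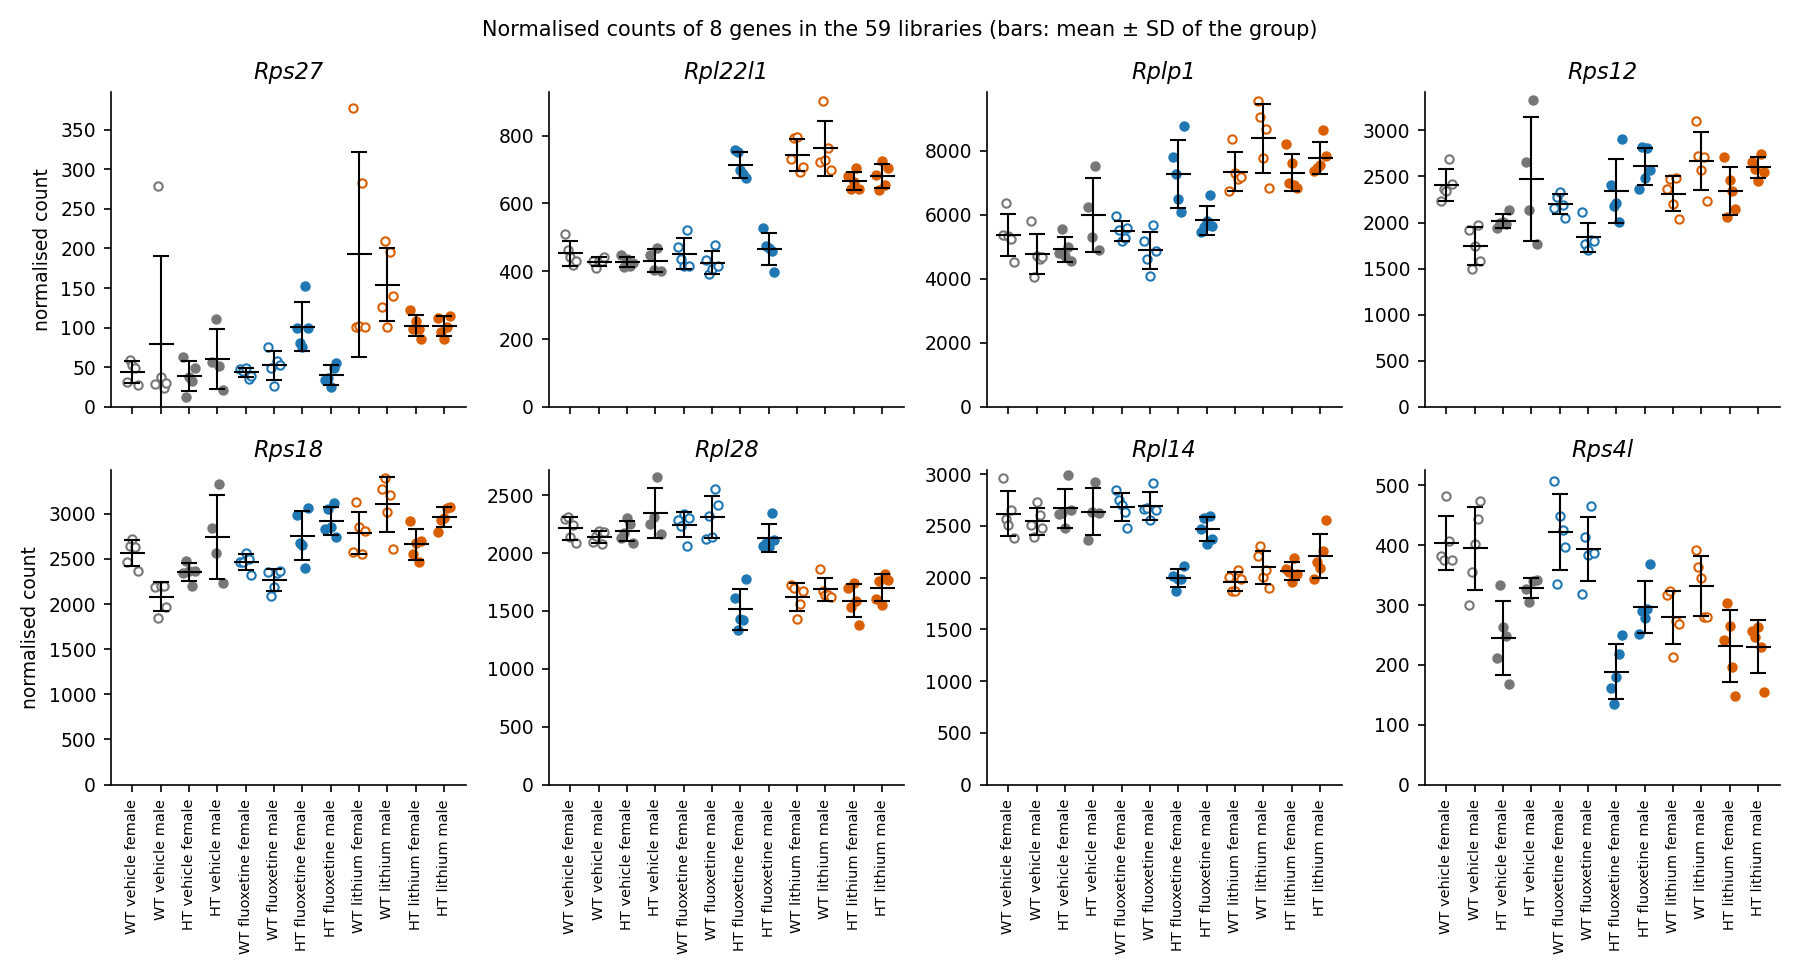
Normalised counts of 8 ribosomal protein genes in every library, by treatment and genotype (open points WT, filled points HT; horizontal bars with whiskers are mean ± SD of a group). Rpl22l1 is higher and Rpl28 lower in every lithium library than in any vehicle library, and Rps4l is lower in HT groups.

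Longer ribosomal protein transcripts had smaller lithium differences. Genes with transcripts under 600 bases had a median of 0.33 (28 genes, 23 higher and 2 lower), those of 600 to 900 bases 0.29 (31 genes, 24 and 2) and those of 900 bases or more 0.16 (23 genes, 14 and 3). Other coding genes in the same length bins had medians of 0.10, 0.07 and -0.02 (481, 1532 and 13041 genes). Of those genes 45.3%, 43.8% and 29.5% rose, and 25.8%, 26.3% and 36.3% fell. Across 82 of the ribosomal protein genes the lithium difference and the median length of a gene's coding transcripts had a Spearman rho of -0.40, and the Spearman rho was -0.18 with GC content and -0.26 with the mean value (83 genes each). These are descriptions over genes that share the same libraries.

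With the trend on GC content and length removed from each library, 37 of the 83 genes rose and 23 fell under lithium, against 22.2% and 23.2% of 17880 genes, with a median of 0.04. All 37 were among the 61 that rose before, all 8 that fell before still fell, and 7 went from higher to lower. The median then was 0.10 in WT and -0.01 in HT animals, the second a change of direction. By sex the median was 0.21 for WT males and between 0.00 and 0.01 for the other three sets of animals. The 25 libraries with the more negative length slopes are those of lithium animals and of HT females given fluoxetine, so the slope and the treatment cannot be told apart in them.

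**Figure D3:**
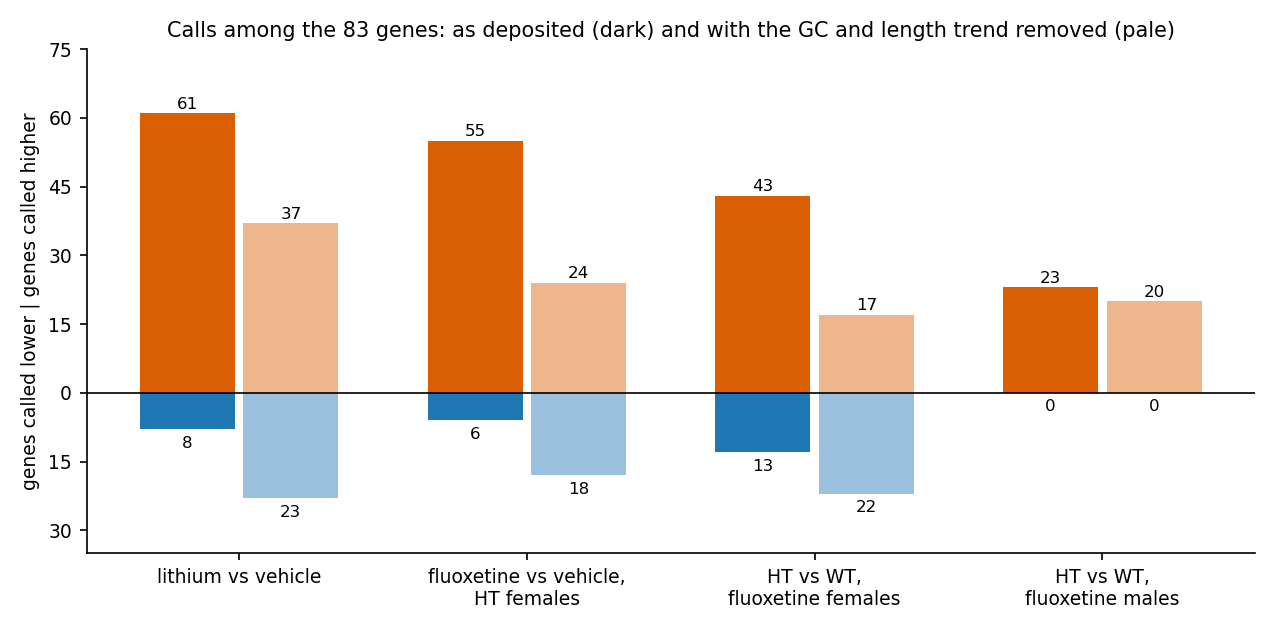
Number of the 83 ribosomal protein genes called higher or lower in 4 comparisons (orange bars higher, blue bars lower), with values as deposited (dark bars) and with a trend on GC content and length removed from each library (pale bars). Under lithium the counts go from 61 higher and 8 lower to 37 and 23, and for HT against WT in fluoxetine males from 23 and 0 to 20 and 0.

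Fluoxetine gave 1 called gene in WT animals. Rps2, a small-subunit protein at the messenger RNA entry, was higher, against 0.632% of all genes called higher and 0.386% lower. It ran from 5737.2 to 11422 normalised counts in the 10 WT vehicle libraries and from 8387.8 to 12717 in the 10 WT fluoxetine libraries, with overlap (0.35 ± 0.08 SE; limma adjusted p = 0.0189). The call was lost without WT vehicle female 1 and also without WT fluoxetine male 4, and 2 genes were called without HT vehicle male 3 or 4, WT vehicle female 2, WT fluoxetine male 1 or WT lithium male 5. The median over the 83 genes was 0.03. In WT females the median was -0.00 and in WT males 0.08, with 76 of 83 above 0. The genes varied together within groups, so counts above or below 0, here and later, are descriptions only. No share of all genes goes with them. Neither sex alone had a called gene by limma, edgeR or DESeq2, against 0.112% of all genes higher and 0.0279% lower in females and 0.0838% and 0.0447% in males. In females 3 genes and in males 10 had an unadjusted p under 0.05. Here and below, percentages of all genes are for the adjusted p. No share of all genes at the unadjusted cut is given, so counts at that cut are descriptions only.

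In HT animals 48 of the 83 genes rose with fluoxetine and 4 fell (14.8% and 16.3% of all genes), and the genotypes differed in this respect. The interaction of genotype and fluoxetine was called for 29 genes in the positive and 6 in the negative direction (8.97% and 11.7% of all genes). The called changes were in HT females, where 55 rose and 6 fell (18.9% and 19.5% of all genes) with a median of 0.25. In HT males no gene was called by limma, edgeR or DESeq2 (0.095% of all genes higher and 0.0671% lower), 13 had an unadjusted p under 0.05, and the median was 0.04. Markers of other cells moved with fluoxetine in HT females. The sum of 5 markers of frontal cortex layers was 12139 to 13250 normalised counts with vehicle and 10047 to 10534 with fluoxetine, without overlap (0 rose and 2 fell). That of 6 microglial markers was 6791 to 9032 and 5999.6 to 6358 (1 rose and 2 fell), and that of 6 endothelial markers 4760 to 6304 and 4547 to 4785 (1 rose and 4 fell). Their part in the result was not tested. The sex difference of the response in HT animals was called for 26 genes as more positive in females and 3 as more negative (6.59% and 8.59% of all genes).

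Rpl22l1 shows the pattern. HT vehicle females had 448.82, 412.18, 436.25, 415.32 and 423.44 normalised counts, and HT fluoxetine females 758.52, 751.01, 699.23, 686.27 and 673.93. HT fluoxetine males, at 526.92, 474.75, 468.86, 458.65 and 396.79, were all below the fluoxetine females. The gene rose by 0.74 ± 0.06 (SE; limma adjusted p = 5.92e-13) in HT females and differed by 0.11 ± 0.07 (adjusted p = 0.684) in HT males. The sex difference was 0.63 (adjusted p = 8.36e-06). With the trend removed the rise in HT females was 0.18 (adjusted p = 0.0131), and the sex difference was 0.12 and not called (adjusted p = 0.548).

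Rpl28 moved the other way. It had 2128.8, 2171.5, 2298.4, 2247.1 and 2086.1 normalised counts in HT vehicle females and 1608.9, 1334.4, 1434.3, 1421.3 and 1771.9 in HT fluoxetine females. The groups did not overlap, and the gene fell by 0.54 ± 0.06 (SE). Rpl14 had 2613.5, 2621.8, 2480.0, 2988.1 and 2650.0 with vehicle and 2017.0, 1872.1, 1984.3, 1985.2 and 2116.6 with fluoxetine in these females, and fell by 0.42 ± 0.06. Rpl39 rose there by 0.63, Rplp1 and Rps29 by 0.56 each and Rps27 by 1.49. Rps27 summed with its copy rose by 0.70, and alone with the trend removed it was not called (limma adjusted p = 0.0808). Rpl28 without the trend stood at -0.61, Rpl14 at -0.53, Rplp1 at 0.45 and Rps29 at 0.26.

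With the trend on GC content and length removed, the HT females kept 24 genes higher and had 18 lower (6.44% and 6.79% of all genes; median 0.06). The interaction of genotype and fluoxetine then had 7 genes higher and 6 lower (0.543% and 0.856%), and the sex difference 1 and 4 (0.257% and 0.481%), with its median changing direction from 0.18 to -0.02. Without the HT fluoxetine females no gene was called for fluoxetine in HT animals or for the interaction.

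Lithium in WT animals and fluoxetine in HT females share no library, and the 83 genes took similar values in both. The log2 differences had a Pearson r of 0.94 (0.93 without Rps27, 82 genes) and a Spearman rho of 0.90, against a Pearson r of 0.68 over all 17891 genes. The points share the more negative length slope of these libraries, and no p is given for them. Of the 68 genes called under lithium in WT and the 61 called in HT fluoxetine females, 54 were higher and 4 lower in both, which is 85.3% of the first list and 95.1% of the second. No matching overlap over all genes tested is given, so these shares are a description only. Against fluoxetine in HT males the Pearson r was 0.10 (0.53 without Rps27) and the Spearman rho 0.48.

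**Figure D4:**
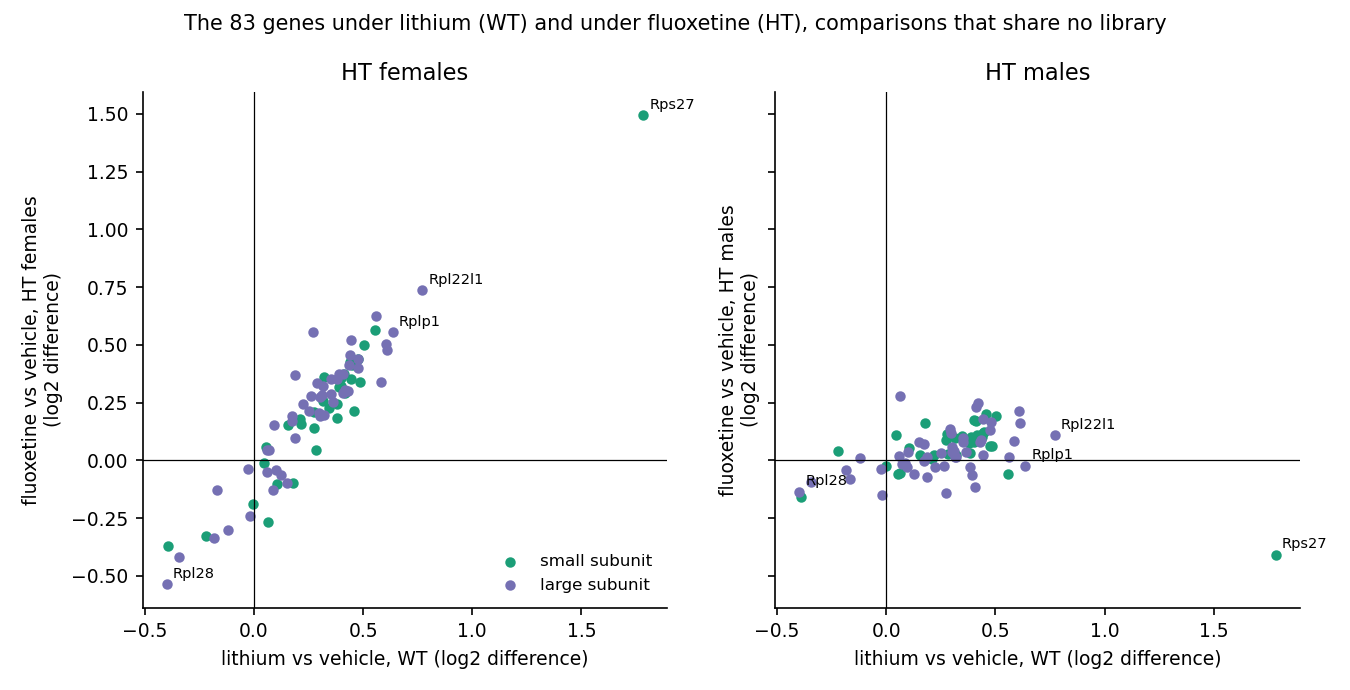
Log2 difference of each of the 83 genes under lithium in WT animals (horizontal axis) against fluoxetine in HT females and in HT males (vertical axes); points are genes, green for the small and purple for the large subunit. In HT females the points follow the lithium values (Pearson r 0.94), with Rpl28 and Rpl14 at the low end of both, and in HT males Rpl22l1 is at 0.11 and Rps27 at -0.41.

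Few of these genes were called for genotype outside the fluoxetine groups. In vehicle animals, HT against WT (9 and 10 libraries), no gene was called by limma or edgeR and 1 by DESeq2, 11 had an unadjusted p under 0.05, and the median was 0.05 (0.0279% of all genes were higher and 0.0783% lower). Left out singly, HT vehicle female 2, HT lithium female 5 or HT lithium male 5 gave 1 call. With lithium, HT against WT gave no calls by limma or edgeR and 3 lower by DESeq2, 12 genes had an unadjusted p under 0.05, and 75 of 83 differences were below 0 with a median of -0.05 (0.168% of all genes were higher and 0.218% lower). No gene was called for the interaction of genotype and lithium by limma, edgeR or DESeq2 (0% of all genes), where 19 had an unadjusted p under 0.05 and the median was -0.09. Over all treatments 25 genes were higher and 2 lower in HT (5.15% and 9.59% of all genes), with a median of 0.05. That count went to 10 and 4 with the trend removed (3.52% and 6.66%). It went to 8 higher and 1 lower without the HT fluoxetine females, where no share of all genes is given.

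The largest of the genotype differences was that of Rps4l, a copy of the X-linked Rps4x, at chr6:148354656-148355598 on the plus strand (GRCm38). GENCODE M21 annotates it as a transcribed processed pseudogene, and only 0.876% of its 31-base stretches occur in Rps4x. It had 212.92 to 507.73 normalised counts in the 30 WT libraries (median 378.32) and 134.92 to 368.82 in the 29 HT libraries (median 251.3). The ranges overlapped, and the group mean was lower in HT than in WT in all 6 combinations of treatment and sex, with a difference of -0.57 ± 0.07 (SE; limma adjusted p = 4.4e-08). In vehicle animals alone it was -0.50 ± 0.12 (adjusted p = 0.0699). Among fluoxetine females HT had 134.92 to 249.85 counts and WT 334.86 to 507.73, without overlap (-1.18 ± 0.17 SE, adjusted p = 7.76e-08).

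Among fluoxetine females, 43 of the 83 genes were higher in HT than in WT and 13 lower (19.2% and 20.2% of all genes), with a median of 0.18 that changed direction to -0.04 with the trend on GC content and length removed (17 higher and 22 lower, 5.42% and 7.24% of all genes). The HT libraries of this contrast are among the 25 above.

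In fluoxetine males, HT animals had higher RNA levels of ribosomal protein genes than WT animals. These libraries lie outside the 25 with the more negative length slopes. Of the 83 genes 23 were higher and none was lower, against 0.805% of all genes higher and 0.799% lower. The small subunit gave 15 of the 23, out of 33, with a median of 0.21, and the large subunit 8 of 50 with a median of 0.10. In all, 72 of the 83 differences were above 0, a description of genes that varied together within groups.

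Rps12, a protein of the small subunit's beak, had 2112.2, 1770.3, 1698.5, 1807.1 and 1802.7 normalised counts in WT fluoxetine males and 2363.0, 2818.9, 2481.1, 2813.3 and 2569.3 in HT fluoxetine males. Every HT library was above every WT library, and the difference was 0.51 ± 0.10 (SE; limma adjusted p = 0.00393). Rpl17, which sits at the tunnel exit, had 2960, 2563.3, 2738, 2973.4 and 2946 in WT and 3984.4, 3930.6, 3881.3, 3791.1 and 3520.4 in HT, without overlap (0.43 ± 0.07, adjusted p = 0.000344). Rps21 (0.42) and Rps27l (0.37) were higher too.

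Rps18, of the small subunit's head, had 2352.1, 2092.6, 2186.9, 2345.0 and 2371.2 normalised counts in WT and 2828.2, 3051.3, 2854.2, 3116.5 and 2745.4 in HT. Rpl13a, known also for a role in translational control of inflammatory messages, had 3751.8, 3452.5, 3352.8, 4033.7 and 3575.1 in WT and 4778.8, 4973.0, 4743.4, 4965.9 and 4306.7 in HT. Neither gene's groups overlapped, and both were named after their values were seen. The differences were 0.36 and 0.39. Rps24, in which inherited variants cause an anaemia of red-cell production, had 3349.5 to 4027.3 in WT and 4276.7 to 4989.9 in HT (0.32 ± 0.06).

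The 23 calls were 20 with the trend on GC content and length removed (0.604% of all genes), 16 of them shared, and 23 with edgeR and 27 with DESeq2 on recovered reads. Fitted on the male fluoxetine groups alone there were 12. Shares of all genes are not given for edgeR, DESeq2 or this last fit. Left out singly, HT fluoxetine males 2, 4 and 1 gave 10, 12 and 14 calls, and WT fluoxetine males 3 and 2 gave 10 and 15. Summed levels of 6 oligodendrocyte markers had a median of 63611 normalised counts (40552 to 112489) in these WT males and 130467 (66498 to 176485) in the HT males, with 0 of the 6 called and a median difference of 0.75. The sum of 6 endothelial markers was 5450 to 7219 in WT and 5167 to 5448 in HT males, without overlap. That of 7 markers of dividing or immature cells was 3355 to 6866 (median 3472) and 3909 to 6491 (median 5114). None of these 13 genes was called, and the part of these markers in the result was not tested.

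Vehicle males leaned the same way and vehicle females the other. HT against WT was above 0 for 80 of 83 genes in vehicle males (median 0.18), of which 3 were called, Rps18, Rps23 and Rpl27a, against 0.0335% of all genes higher and 0.0279% lower. Rps18 had 2190.3, 1849.9, 2201.5, 2199.1 and 1966.3 normalised counts in WT vehicle males and 2837.8, 2568.5, 3329.8 and 2231.0 in HT vehicle males, all 4 above the WT range (0.39 ± 0.07 SE, limma adjusted p = 0.0112). The count was 25 without HT vehicle male 4, 0 without HT vehicle male 1 or 3 or WT vehicle male 2 or 5, and 1 without WT vehicle male 4. The median was 0.10 without HT vehicle male 3. With the trend on GC content and length removed it was 0.09, and 1 gene was called. The genes varied together within groups, so 80 of 83 is not a count of independent results. In vehicle females 74 of 83 differences were below 0 (median -0.09). None was called by limma or edgeR (0.00559% of all genes higher and 0.0112% lower by limma), and 1 was by DESeq2. An unadjusted p under 0.05 was found for 26, with no share of all genes at that cut. With the trend removed the median in vehicle females was -0.03, and 1 gene was called lower.

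The difference between the sexes in the vehicle genotype effect was below 0, females minus males, for 82 of the 83 genes, with a median of -0.30 (-0.20 without HT vehicle male 3) against 0.00 over all genes. The 5 genes called were Rps12 (-0.73), Rps23 (-0.59), Rps18 (-0.51), Rpl27a (-0.41) and Rpl30 (-0.31), with limma adjusted p from 0.0405 to 0.0481, and these were 5 of only 6 genes called lower in the whole table (0.0335%). All but Rps12 were named after their values were seen. The count was 0 with the trend on GC content and length removed (median -0.12). It was also 0 without HT vehicle females 1, 2, 4 or 5, HT vehicle males 1 or 3, WT vehicle females 2 or 4, or WT vehicle males 2 or 5, each left out singly. It was 1 without WT vehicle female 1, 2 without WT vehicle female 3 or WT vehicle male 4, 3 without HT vehicle female 3 or any of 10 libraries of the drug groups, and 22 without HT vehicle male 4.

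**Figure D5:**
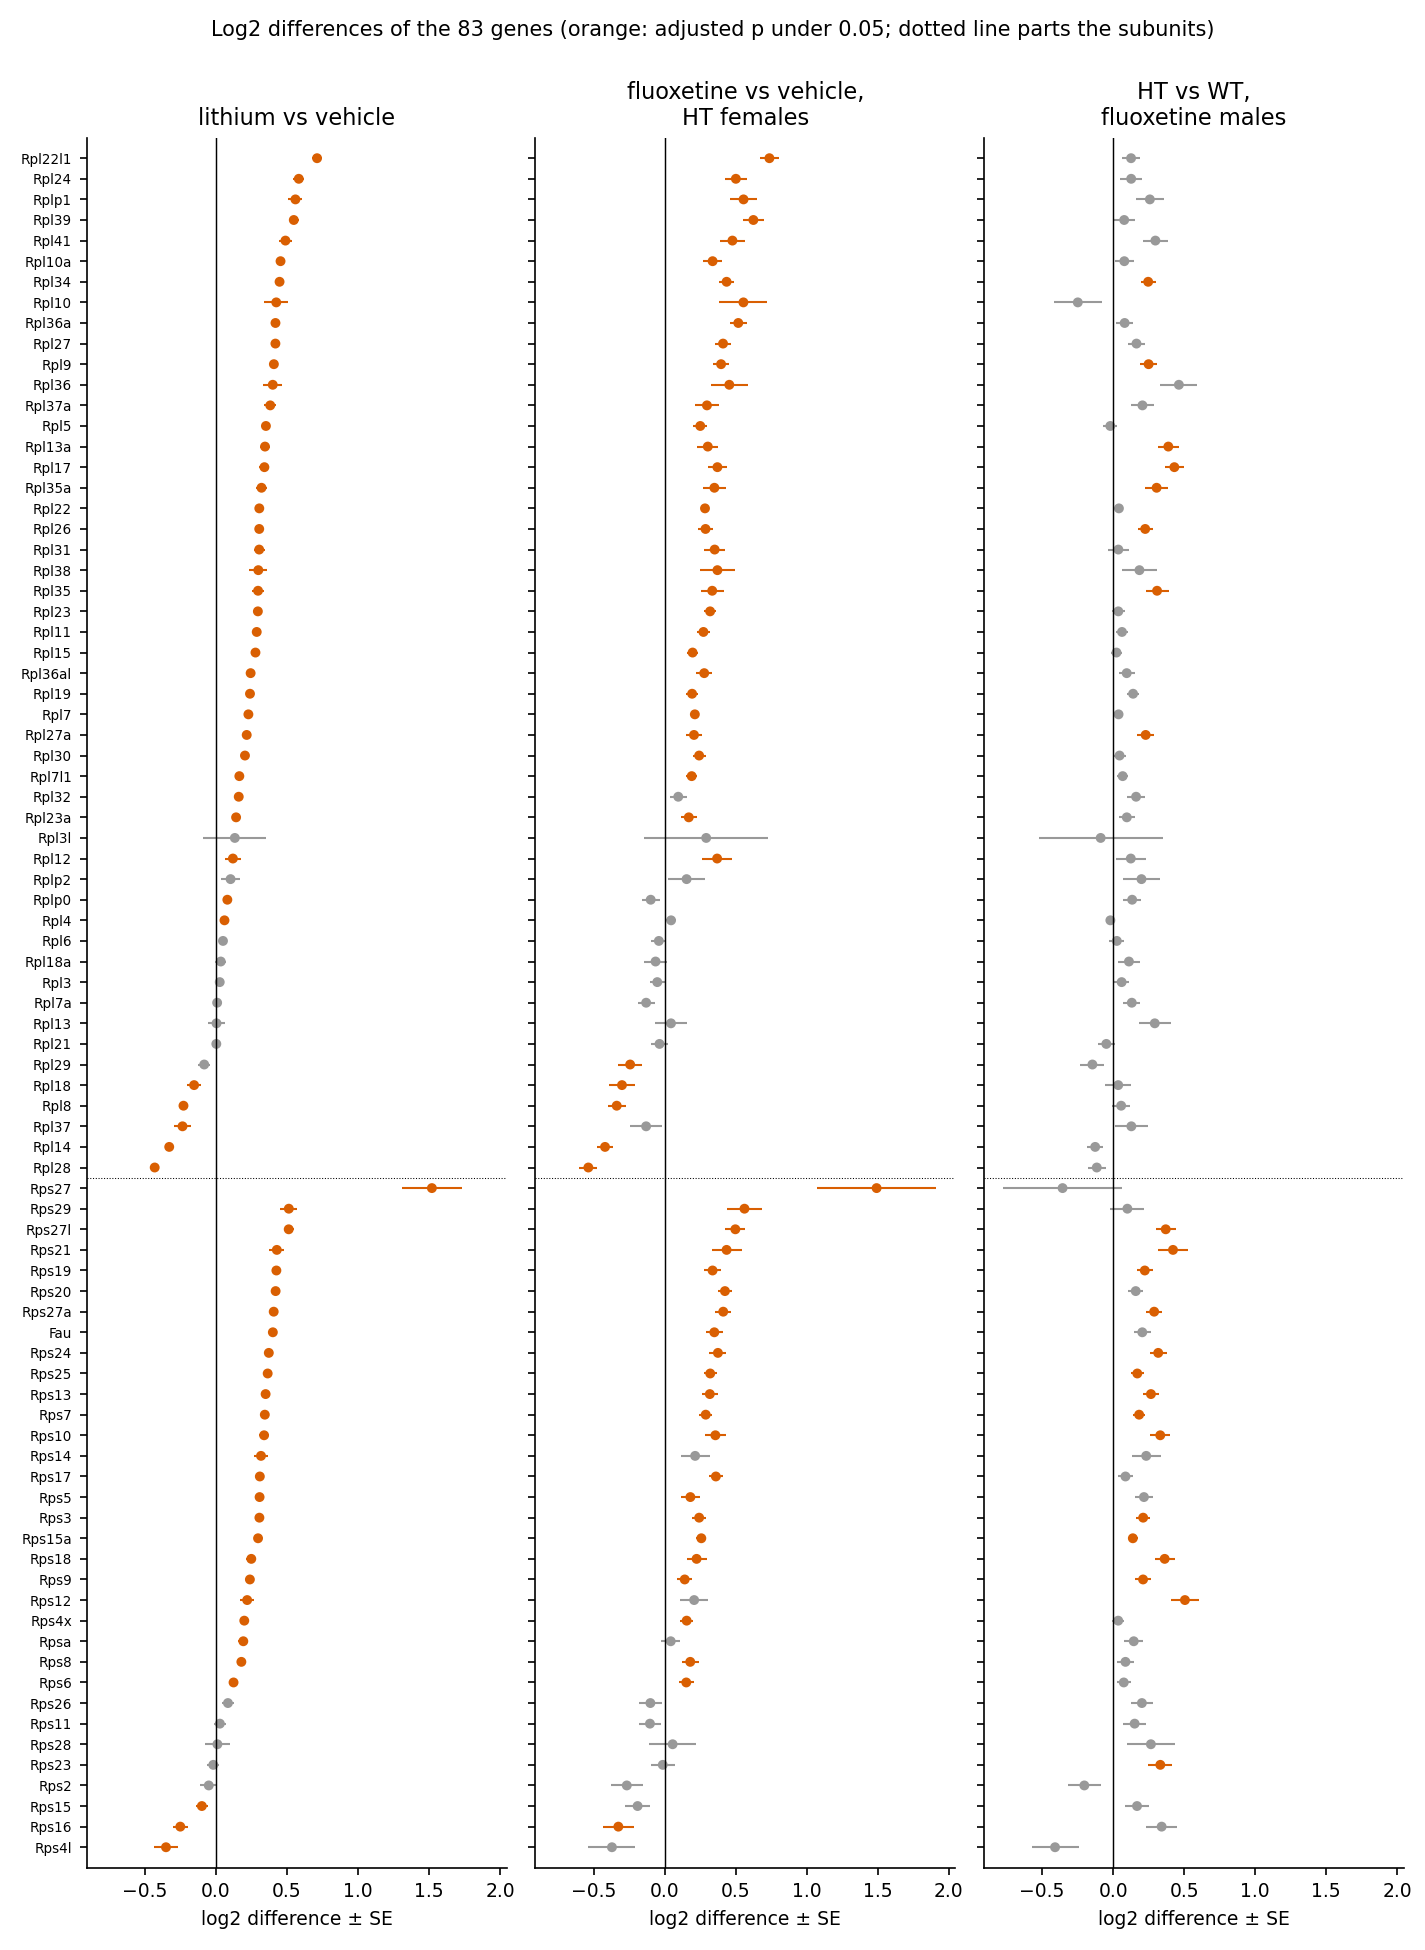
Log2 difference ± SE of each of the 83 genes (1 line per gene, large subunit above the dotted line and small subunit below it) for lithium against vehicle, fluoxetine against vehicle in HT females, and HT against WT in fluoxetine males; orange points passed the test at an adjusted p under 0.05. The first 2 panels follow the same order of genes, with Rpl28 and Rpl14 at the low end, and the third has 23 orange points, all above 0.

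Between females and males, averaged over the groups, 8 genes were higher and 5 lower in females (3.55% and 5.2% of all genes), with a median of 0.01. With the trend removed there were 0 higher and 3 lower (0.185% and 0.347%), and without the HT fluoxetine females 0 and 0. edgeR called 3 higher and 5 lower and DESeq2 7 and 5, and leaving out single libraries gave from 4 higher (HT fluoxetine male 5) to 14 (HT vehicle male 3).

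Genes with and without the pyrimidine run were compared by their counts. Under lithium 22 of the 30 genes with the run rose and 3 fell (median 0.29), and 25 of the 32 without it rose and 3 fell (median 0.30). In HT against WT fluoxetine males 13 of the 30 with the run were higher (median 0.19) and 8 of the 32 without it (median 0.14). The difference between the sets was not tested.

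Other genes of the translation machinery moved in both directions under lithium, where 32.7% of all genes rose and 30.4% fell. Of 17 translation factors and related genes of the TOP class 9 rose and 5 fell (median 0.13), among them Eef2, the translocase, at -0.41 and Eef1d, an elongation factor subunit, at -0.30. Of 29 initiation factors 15 rose and 10 fell (median 0.08), with Eif2s2 at 0.30 and Eif3b at -0.26. Of 40 ribosome biogenesis factors 19 rose and 12 fell (median 0.04), with Polr1a, the large subunit of RNA polymerase I, at -0.31 and Bysl at -0.35. Of 16 genes for NatA and for proteins that meet the nascent chain 13 rose and 1 fell (median 0.12), with Btf3 at 0.25 and Srp14 at 0.24. Among ribosomal entries outside the symbol rule, Rps3a1 rose by 0.25, Rack1 by 0.13, Rps27rt by 0.70 and Rpl37rt by 0.62.

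In HT against WT fluoxetine males the same lists gave 1 higher and 1 lower of 17 TOP-class genes (Eef1b2 at 0.18, Pabpc1 at -0.17), 0 of 29 initiation factors, 1 higher of 40 biogenesis factors (Polr1d at 0.15) and 1 higher of 16 NatA and nascent-chain genes (Srp14 at 0.15). Markers of other cells moved with lithium too. Of 6 endothelial markers 1 rose and 5 fell (median -0.48), with sums of 4760 to 6976 normalised counts with vehicle and 3993 to 6087 with lithium, and of 5 markers of frontal cortex layers 4 fell and none rose. Their part in the ribosomal protein result was not tested.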

How the data were processed

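RNA sequencing of 59 prefrontal cortex libraries was analysed from 1 deposited table. Its values are a signal, the authors' estimated counts divided by a size factor per library; Salmon 0.11.2, R 3.6.0, DESeq2 1.19.11 and GRCm38 are named per the submitters' processing notes, and their settings and the annotation release are not given in the sources used here. Steps between low values gave back whole reads (100% of values up to 1000 reads lay within 0.01 read of a whole number), 24992127 to 32870490 per library. The 83 genes and the gene lists were chosen with earlier results of these data known.

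Genes with a value of 10 or more in 4 libraries were kept (17891). limma 3.58.1 (R 4.3.3) was fitted to log2(value + 1) with 12 group means, 47 residual degrees of freedom and an intensity trend, and adjusted p-values (Benjamini-Hochberg) run over all genes tested. Differences on this scale understate the change of low genes. The script was tested on simulated data. Each group mean has equal weight, and contrasts average over sexes and, where named, treatments. The contrasts within 1 sex of HT against WT and of genotype by sex in vehicle were given prominence after the data were seen.

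Alternatives were an added constant of 0.5 or 5, no filter on low values or a mean of at least 100, quantile normalisation, median centring, no intensity trend, only the groups compared, the replicate number as a block, a spline trend on GC content and length (GENCODE M21) removed from each library, leaving out the HT fluoxetine females, each library in turn, and count models for those whole reads, by edgeR 4.0.16 and by DESeq2 1.42.0. With them edgeR called 11214 genes for lithium. Shares of all genes beside counts are those of the main fit or of the fit with the trend removed. Counts under the other alternatives carry no such share, so whether all genes changed alike is not shown. The trend and the library slopes used the length of a single chosen transcript per gene. Other lengths given are medians over a gene's coding transcripts. Summing a gene with copies that share 100 or more stretches of 31 bases was added after seeing the data. Single values were compared by exact permutation in scipy 1.17.1. Genes named were up to 3 called per direction and comparison with a mean of at least 100, expressed copies with their parents, the 3 highest levels per length in each subunit, Rpsa, Rplp0, Rplp1, Rplp2 and Fau, 2 genes per context list, and Naa15. Promoters are RefSeq's (GRCm38.p6), and protein sequences were not used here.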

Additional observations from a re-analysis of the deposited data

Results flagged for a closer look

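A library far from the other libraries of its group was found in 8 of 204 group and gene combinations, and chance flags about 1 in 20 groups. These combinations cover only part of the named genes. Not among the 8 are Rps24 at 3602 in HT vehicle female 2 (next 4038.3) and Rpl22 at 2401.8 in HT lithium male 5 (next 2211.9). Rps27 was at 278.67 normalised counts in WT vehicle male 2, with the next value at 37.6. Rpl10 was at 741.53 in WT fluoxetine male 4, below the next at 1046.9. Rps12 was at 2112.2 in WT fluoxetine male 1 (next 1807.1), Rpl29 at 3995.4 in WT lithium female 2 (next 3594.6) and Rpl28 at 1860.2 in WT lithium male 1 (next 1673.8). Rps27l was at 188.75 in WT lithium male 2 (next 167.7), and Rpl28 at 2343.8 in HT fluoxetine male 4 (next 2115.5). Rpl24 was at 1498.9 in HT vehicle female 2, below the next at 1829.9.

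The fluoxetine effect differed between the genotypes for 35 of the 83 genes by limma's interaction term. On the log2 scale, HT minus WT, it was 0.43 for Rpl22l1, 0.43 for Rps27l, 0.37 for Rpl17 and 0.31 for Rpl24. It was -0.32 for Rpl14, -0.40 for Rpl28, -0.28 for Rpl29, -0.24 for Rpl8 and -0.51 for Rps2.

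Within HT animals the fluoxetine effect differed between the sexes for 29 genes. Females minus males, it was 1.90 for Rps27, 0.69 for Rpl10, 0.63 for Rpl22l1, 0.62 for Rps29, 0.58 for Rplp1 and 0.31 for Rps27l. It was -0.33 for Rpl14, -0.40 for Rpl28 and -0.30 for Rpl8. Leaving out single libraries ended the call of Rpl10 in 13 cases (adjusted p up to 0.147, without HT vehicle male 3), of Rps27l in 7 (up to 0.113, without HT vehicle male 1), of Rps27 in 5 (up to 0.0880, without HT vehicle male 2) and of Rpl8 in 3 (up to 0.0821, without HT vehicle male 4). Rps27 was at 0.62 summed with its copy, and with the trend on GC content and length removed its call was lost (limma adjusted p = 0.283). In vehicle animals the genotype effect differed between the sexes for 5 genes, with Rps12 at -0.73.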

How the results depend on the processing

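Over both genotypes, the lithium median stayed above 0 and the count of called genes within 1.5 times of 69 under each alternative run, with 67 to 70 when single libraries were left out. With the trend on GC content and length removed, the split between higher and lower changed, 7 genes went from called higher to called lower, and the median in HT animals turned to -0.015. With that trend removed, HT against WT had 1 called gene in vehicle animals, 14 over all treatments and 1 in vehicle males, fluoxetine had 2 in WT and 33 in HT, genotype by fluoxetine had 13, sex by fluoxetine in HT 5 and genotype by sex in vehicle 0. Its reversed values were, for Rpl22, -0.093 under lithium, -0.059 for fluoxetine in HT, -0.074 for genotype by fluoxetine and -0.16 for sex by fluoxetine. For Rpl7 they were -0.035, -0.016, -0.050 and -0.066 in the same order. Rpl36al was at -0.054 under lithium and -0.035 for fluoxetine in HT, Rps4x at -0.0242 and -0.0245, Rpl36a at -0.033 for genotype by fluoxetine and Rps27l at -0.15 for sex by fluoxetine. In this trend Rpl22 was taken at 474 bases, the length of its chosen transcript. Without the HT fluoxetine females the counts were 9 for HT against WT over all treatments, 0 for fluoxetine in HT, 0 for genotype by fluoxetine and 1 in vehicle males. Rpl36al (-0.022), Rplp1 (-0.023) and Rps29 (-0.057) then reversed for fluoxetine in HT, and Rpl36a (-0.059) and Rpl7 (-0.0054) for genotype by fluoxetine. Summed with copies, Rpl10 stood at -0.024 for sex by fluoxetine. Fitted on the groups compared alone, HT against WT had 0 calls in vehicle males and 12 in fluoxetine males. DESeq2 called 1 gene for HT against WT in vehicle and 2 for fluoxetine in WT. Genotype by sex in vehicle had 0 calls with an added constant of 5, with median centring, without the intensity trend, with only the groups compared and with the replicate block, 15 with DESeq2 and 3 with copies summed. The cause of these changes was not tested. Single libraries left out gave 0 to 1 calls for HT against WT in vehicle, 23 to 32 over all treatments, 0 to 25 in vehicle males and 10 to 27 in fluoxetine males. They gave 0 to 2 for fluoxetine in WT, 44 to 58 in HT, 31 to 42 for genotype by fluoxetine, 22 to 40 for sex by fluoxetine and 0 to 22 for genotype by sex in vehicle. Equal replicate numbers did not pair libraries: their deviations had a mean r of 0.01 over 319 pairs, against -0.00 over 1276 other pairs, and with the replicate block lithium had 61 genes higher and 7 lower and HT against WT fluoxetine males 23 and 0. Rpl3l and Rps27, with means of 6.91 and 84.8 normalised counts, had the widest spread within groups (SD 0.70 and 0.69, log2). Rps27l, with a mean of 140, had an SD of 0.10. Whether low counts account for the spread was not tested.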
